A study of Mus musculus with 4 samples.

Results

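The PRDM genes encode a family of transcription regulators in sorted amacrine cells of the postnatal mouse retina. The 9 genes described here are Prdm1, Prdm2, Prdm4, Prdm6, Prdm8, Prdm10, Prdm13, Prdm15 and Prdm16. They were chosen by name from 55471 genes in a table of read counts, when earlier results of these data were known. All 9 were found in the table, 8 had enough counts to be tested, and Prdm6 was listed at 0 in every library. Amacrine cells, retinal interneurons that mostly release GABA or glycine, were sorted from retinas of C57BL6 mice at postnatal days 6 to 7. All mice carried Gbx2-CreERT2-IRES-EGFP, an allele that expresses a tamoxifen-inducible Cre and the green protein EGFP from the Gbx2 locus, and the Ai9 reporter, which makes tdTomato where Cre has acted. All sorted cells carried tdTomato, so both fractions descend from cells in which Gbx2 had driven Cre. The GFP-negative fraction (replicates 2 and 6) and the GFP-positive fraction (replicates 2 and 3) were compared, with 2 libraries each and 750 to 2500 sorted cells behind an RNA sample. According to the series text, 4 biological replicates came from 3 litters, and each animal was to give a sample of both fractions. No source used here says whether both replicates 2 came from 1 animal, and libraries beyond these 4 were not analysed here. Values are listed in the order GFP-negative replicates 2 and 6, then GFP-positive replicates 2 and 3.

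PRDM proteins share a PR domain, related to the SET domain of histone methyltransferases, usually followed by zinc fingers that bind DNA. A few members are themselves histone methyltransferases, while others bring in corepressors and chromatin enzymes, and many act as switches between sister cell fates. In the retina, Prdm13 acts downstream of the amacrine factor Ptf1a and is needed for subsets of amacrine cells. Prdm8 is needed for rod bipolar cells and marks some amacrine cells, and it forms a repressor complex with the basic helix-loop-helix factor Bhlhe22. Prdm1, also called Blimp1, holds photoreceptor precursors in the photoreceptor fate against the bipolar fate.

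Total counts were 41040667 to 44689917 per library, and levels are given as CPM, read counts scaled to a common effective library size. A count of 3, taken as the floor, was 0.0631 to 0.0838 CPM, for counting error only. Gbx2, the gene behind the sort, was at 28.7 and 55.5 CPM in the GFP-negative and at 602 and 496 CPM in the GFP-positive libraries. Markers of other cells were present. The sum of 16 rod markers was 8670, 2073, 9942 and 16250 CPM. The sum of 15 bipolar markers was 1242, 534, 1480 and 2134 CPM, and that of 11 cone markers 843, 209, 788 and 1519 CPM. None of the markers in these 3 lists was at 0 in all libraries, and GFP-negative replicate 6 was the lowest library in each list. The sum of 16 amacrine markers was 4838, 7324, 3098 and 2240 CPM. Of these, 5 (Gad1, Gad2, C1ql1, C1ql2 and Tfap2c) were lower in GFP-positive cells by the edgeR test, beside 0.870% of all tested genes. Pax6, a transcription factor of all amacrine cells, was at 1286 to 2245 CPM. The sum of 11 Müller glia markers was 1639, 1961, 730 and 889 CPM, of which Dkk3, the 1 marker in the list that passed, made up 1008, 1577, 244 and 131 CPM. Without Dkk3 the other 10 summed to 631, 384, 486 and 759 CPM. Sums for ganglion, horizontal, vascular and microglial markers were 346 to 434, 170.3 to 338, 65.6 to 134 and 64.1 to 178 CPM. In such pooled RNA, fewer cells of a type and less RNA per cell cannot be told apart.

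A different PRDM gene led in each fraction. Prdm8 led the family in GFP-negative cells and was 5.71-fold lower in GFP-positive cells, and it was the 1 member that passed the test. Prdm13 led the family in GFP-positive cells, where its mean was 2.75-fold that of GFP-negative cells, but this difference did not pass over all genes. In edgeR's quasi-likelihood test, 1 of the 8 tested members passed an adjusted p of 0.05, lower in GFP-positive cells, beside 1.10% of all tested genes (198 of 17940), or 0.870% lower and 0.234% higher. The CPM values of the fractions did not overlap for 5 of the 8 members, 3 higher and 2 lower in GFP-positive cells, beside 43.8% of all tested genes. The median log2 fold change (GFP-positive minus GFP-negative throughout) was 0.38 over the 8 members and 0.04 over all tested genes.

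**Figure D1:**
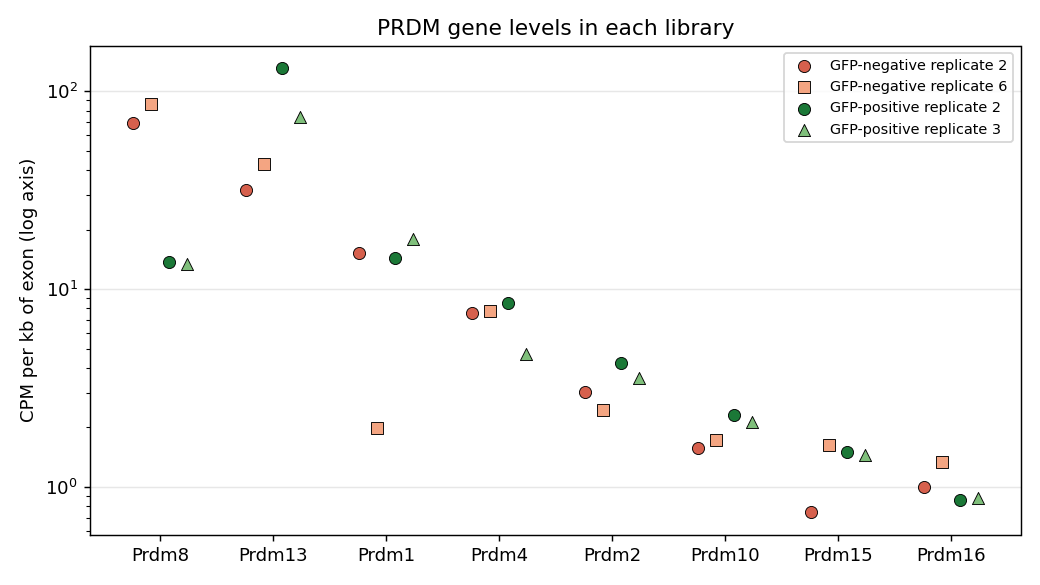
Level of each PRDM gene in each library, as CPM per kilobase of annotated exon on a log axis, with 1 point per library and Prdm6 (0 in every library) not drawn. Prdm8 is highest in the GFP-negative libraries and Prdm13 in the GFP-positive libraries, and the Prdm1 point of GFP-negative replicate 6 lies far below the other 3.

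Prdm13 (ENSMUSG00000040478) lies on chromosome 4 at 21677480 to 21685963, minus strand, in GRCm38. The GFP-negative libraries held 5661 and 6590 of its reads, and the GFP-positive ones 25630 and 15153. In CPM these were 135 and 184 against 561 and 319. Both GFP-positive libraries stood above both GFP-negative libraries, and the GFP-positive libraries differed from each other by more than the GFP-negative ones did. The means were 159.7 ± 34.4 and 439.6 ± 171 CPM (SD, n = 2 libraries, as for every mean given). The log2 fold change was 1.46 ± 0.39 (standard error), with a 95% interval of 0.56 to 2.36. The unadjusted edgeR p was 0.00522, the 558th smallest of 17940, and the adjusted p was 0.168. With DESeq2, which called 4.39% of all tested genes, the adjusted p was 0.0114. The direction was the same in all 4 fits that left out a library, at 0.98 to 1.81 (edgeR adjusted p = 0.294 to 0.546).

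Prdm8 (ENSMUSG00000035456) lies on chromosome 5 at 98167198 to 98188991, plus strand. The GFP-negative libraries held 14023 and 14941 of its reads, and the GFP-positive ones 3056 and 3090, or 335 and 417 against 66.8 and 65.0 CPM. The fractions were far apart and the GFP-positive libraries nearly equal. Prdm8 fell from 376 ± 58.0 to 65.9 ± 1.32 CPM, a log2 fold change of -2.51 ± 0.33 with a 95% interval of -3.27 to -1.76. The edgeR adjusted p was 0.0148, and the gene had the 53rd smallest p of all tested genes. It also passed without GFP-negative replicate 2 (edgeR adjusted p = 0.0172), but not without GFP-negative replicate 6 (0.106), GFP-positive replicate 2 (0.101) or GFP-positive replicate 3 (0.195). The log2 fold change stayed between -2.72 and -2.34 in those 4 fits. In GFP-negative replicate 6, the library with the highest Prdm8, the bipolar marker sum was lowest, at 534 CPM. The sum of the 10 Müller glia markers other than Dkk3 was also lowest there, at 384 CPM. The full sum of 11 Müller glia markers and the sum of 16 amacrine markers were highest there, at 1961 and 7324 CPM. The part of these cells in the Prdm8 values was not tested. A noncoding gene on the opposite strand, A730035I17Rik, overlaps 1411 bases of Prdm8 exons. It had 17 to 227 counts per library, equal to 0.550% to 2.36% of those of Prdm8, and since the library kit does not mark strand, reads of the shared stretch cannot be told apart.

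The stretches just upstream of both genes are shown because these are the members with the most counts and opposite shifts. Each is the 250 bases before the RefSeq start in GRCm38.p6, 5′ to 3′ on the gene's strand, and neither overlaps a GENCODE exon. The Prdm8 start lies inside the longer GENCODE gene. Capitals mark matches, on either strand, to 3 motifs. These are the E-box CANNTG, bound by basic helix-loop-helix factors such as Ptf1a and Bhlhe22, TTTCCC, the part of the PTF1 site bound by Rbpj, and TAATTA, the core site of many homeobox factors.
Prdm13, chr4:21685964-21686213, minus strand: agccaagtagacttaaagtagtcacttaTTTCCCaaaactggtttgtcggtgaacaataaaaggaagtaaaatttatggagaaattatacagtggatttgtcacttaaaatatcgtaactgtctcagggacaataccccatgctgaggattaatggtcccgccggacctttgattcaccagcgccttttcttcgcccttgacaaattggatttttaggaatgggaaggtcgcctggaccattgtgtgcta
Prdm8, chr5:98180619-98180868, plus strand: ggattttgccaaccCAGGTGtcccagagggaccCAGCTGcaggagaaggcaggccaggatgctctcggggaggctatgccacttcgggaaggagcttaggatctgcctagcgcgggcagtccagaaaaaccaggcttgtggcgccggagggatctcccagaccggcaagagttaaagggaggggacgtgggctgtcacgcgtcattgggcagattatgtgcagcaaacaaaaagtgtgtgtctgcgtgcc
The Prdm13 window holds a single TTTCCC, whose first base is 222 bases before the start, and no match to the other motifs. The Prdm8 window holds 2 E-boxes, CAGGTG at 236 and CAGCTG at 217 bases before the start. Such matches are common: of 32851 RefSeq promoter windows of 250 bases, 66.2% hold an E-box, 21.9% TTTCCC and 4.8% TAATTA. GC content was 41.6% for Prdm13 and 59.6% for Prdm8, beside a median of 52.4% over all windows.

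The balance between Prdm13 and Prdm8 does not depend on how libraries are scaled. Per kilobase of exon, the ratio of Prdm13 to Prdm8 was 0.458 and 0.500 in the GFP-negative libraries, and 9.51 and 5.56 in the GFP-positive ones. Its mean was 0.479 ± 0.0300 and 7.54 ± 2.79, so Prdm8 exceeded Prdm13 in every GFP-negative library and the reverse held in every GFP-positive library. An exact permutation test of such a value, two-sided, cannot go below p = 0.333 with 2 libraries against 2.

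**Figure D2:**
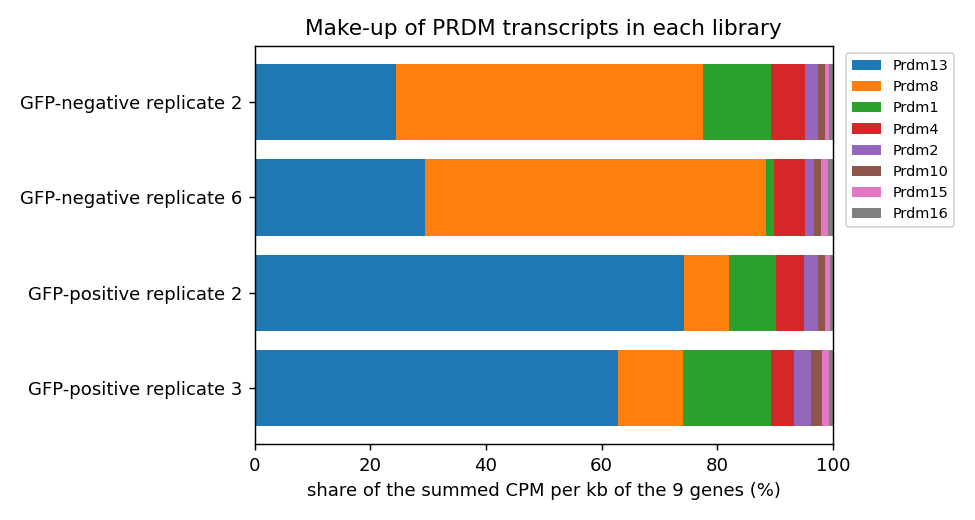
Share of each PRDM gene in the summed CPM per kilobase of exon of the 9 genes, with 1 bar per library. Prdm8 holds 53.2% and 58.9% in the GFP-negative libraries, and Prdm13 holds 74.2% and 62.8% in the GFP-positive libraries.

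As a share of the 9 genes' summed CPM per kilobase, Prdm8 made up 56.0% ± 4.09 in GFP-negative and 9.54% ± 2.47 in GFP-positive cells, and Prdm13 made up 26.9% ± 3.64 and 68.5% ± 8.04. Per kilobase, the GFP-negative order was Prdm8, Prdm13, Prdm1, Prdm4, Prdm2, Prdm10, Prdm15 and Prdm16, at means of 77.5, 37.3, 8.64, 7.67, 2.74, 1.64, 1.19 and 1.17 CPM per kb. The neighbours Prdm1 and Prdm4, Prdm10 and Prdm15, and Prdm15 and Prdm16 overlapped between libraries there. In GFP-positive cells the order was Prdm13, Prdm1, Prdm8, Prdm4, Prdm2, Prdm10, Prdm15 and Prdm16, at 102.7, 16.2, 13.6, 6.60, 3.88, 2.22, 1.48 and 0.872 CPM per kb, and no neighbours overlapped in the 2 libraries. Measured against all tested genes by mean CPM per kb, Prdm8 stood above 96.4% of genes in GFP-negative and 76.7% in GFP-positive cells. Prdm13 stood above 91.1% and 98.2%.

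Prdm1 (ENSMUSG00000038151, chromosome 10, 44437177 to 44528501, minus strand) differed between the GFP-negative libraries by more than between the fractions. It stood at 85.3 and 11.1 CPM in the GFP-negative, and at 80.5 and 100.4 CPM in the GFP-positive libraries. The fractions overlapped, and GFP-negative replicate 6 was far below the other 3 libraries. The means were 48.2 ± 52.5 and 90.5 ± 14.1 CPM, and the log2 fold change of 0.90 ± 0.71 did not pass (edgeR adjusted p = 0.653). That library decides the value: the log2 fold change was 0.09 without GFP-negative replicate 6 (edgeR adjusted p = 1.00), and 2.97 without GFP-negative replicate 2, where it passed (0.0286). The rod sums of 8670, 2073, 9942 and 16250 CPM were also lowest in GFP-negative replicate 6 and highest in GFP-positive replicate 3. Their part in the Prdm1 values was not tested.

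**Figure D3:**
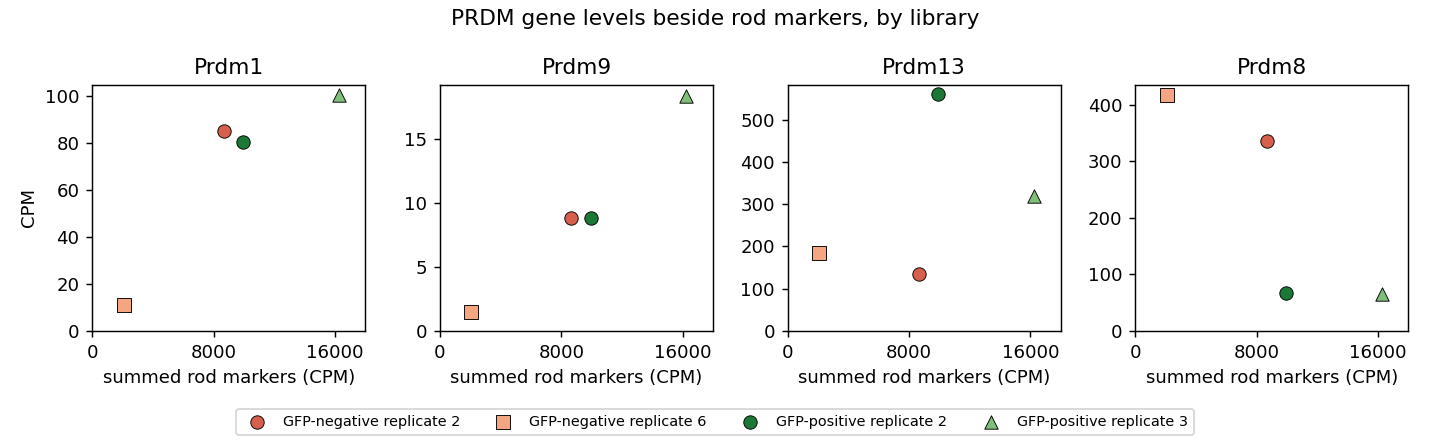
CPM of Prdm1, Prdm9, Prdm13 and Prdm8 (vertical axes) against the summed CPM of 16 rod markers (horizontal axes), with 1 point per library. Prdm1 and Prdm9 are lowest in GFP-negative replicate 6, which has the lowest rod sum (2073 CPM). Both are highest in GFP-positive replicate 3, which has the highest (16250 CPM). Prdm8 is highest where the rod sum is lowest. In GFP-negative replicate 2 and GFP-positive replicate 2, with rod sums of 8670 and 9942 CPM, Prdm8 is at 335 and 66.8 CPM.

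The factors that Prdm1 works beside in photoreceptor and bipolar fate were read from a list of 7 genes. None passed in edgeR, and 1 had an unadjusted p under 0.05, beside 12.6% of all tested genes. The log2 fold changes were above 0 for 6 of them. Otx2, the photoreceptor and bipolar factor that acts upstream of Prdm1, stood at 323 and 71.1 CPM in the GFP-negative and 373 and 508 CPM in GFP-positive libraries (edgeR adjusted p = 0.489). Nrl, the rod factor, stood at 100.3 and 19.1 against 129 and 244 CPM, and Rorb, a nuclear receptor upstream of Nrl, at 486 and 237 against 723 and 545 CPM (edgeR adjusted p = 0.353 and 0.493). Without GFP-negative replicate 2, Otx2 and Nrl passed at log2 fold changes of 2.57 and 3.23 (edgeR adjusted p = 0.0414 and 0.0367), and without GFP-negative replicate 6 they were at 0.45 and 0.90. These 3 genes were lowest in GFP-negative replicate 6, as Prdm1 was. Nrl and Otx2 are also members of the rod and bipolar marker sums above, respectively.

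None of the remaining members passed. Prdm2 (RIZ1), a histone H3 lysine 9 methyltransferase on chromosome 4 at 143107391 to 143212995, stood at 22.5 and 18.1 CPM in the GFP-negative and 31.2 and 26.3 CPM in GFP-positive libraries. Its groups did not overlap, but the log2 fold change was 0.50 with a 95% interval of -0.31 to 1.31 (edgeR adjusted p = 0.611). Prdm10 (chromosome 9, 31280538 to 31381723) stood at 14.5 and 15.9 against 21.5 and 19.7 CPM, also without overlap, with an interval of -0.43 to 1.29 (edgeR adjusted p = 0.693). Both intervals include 0. A noncoding gene on the opposite strand, 4930517E14Rik, shares 129 exonic bases with Prdm10 and had 18 to 50 counts. Prdm4, a partner of the arginine methyltransferase Prmt5 on chromosome 10 at 85891966 to 85917142, stood at 37.4 and 38.1 against 41.8 and 23.0 CPM (log2 fold change -0.22, interval -1.07 to 0.63, edgeR adjusted p = 0.863). Its GFP-positive libraries lay on either side of the GFP-negative ones.

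Prdm15, known for a role in pluripotent cells (chromosome 16, 97791467 to 97851850), stood at 8.44 and 18.5 against 17.02 and 16.5 CPM. The low value was GFP-negative replicate 2, and the log2 fold change of 0.32 (interval -0.76 to 1.40, edgeR adjusted p = 0.836) was 0.99 without GFP-negative replicate 6 and -0.20 without GFP-negative replicate 2. Prdm16, a regulator of brown fat and of neural stem cells (chromosome 4, 154316125 to 154636873), was the lowest tested member per kilobase in both fractions. It stood at 9.28 and 12.5 against 8.05 and 8.20 CPM, without overlap (log2 fold change -0.42, interval -1.48 to 0.65, edgeR adjusted p = 0.775). Prdm6, a repressor known from smooth muscle (chromosome 18, 53463583 to 53575907), had 0 counts in all 4 libraries, each of which allows up to 3 counts, or 0.0838 CPM in the shallowest. These intervals span changes of more than 2-fold in at least 1 direction for Prdm4, Prdm15, Prdm2, Prdm10 and Prdm16, so a p that missed the threshold does not show equal levels.

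**Figure D4:**
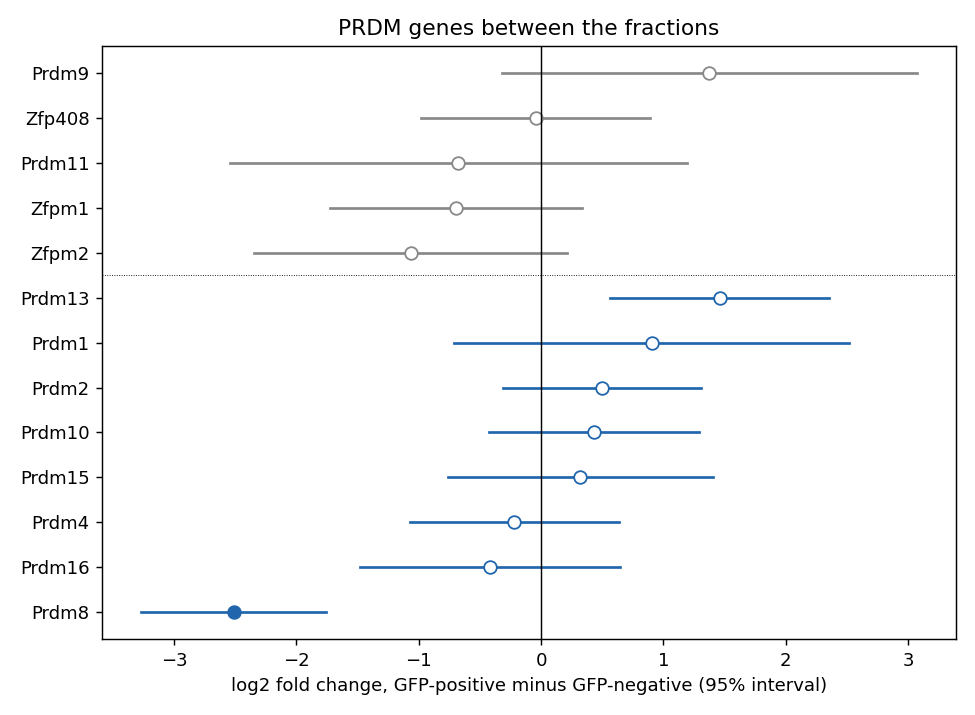
Log2 fold change between the fractions (points) with its 95% interval (lines) for the 8 tested members, below the dotted line, and 5 further PR domain and related genes above it. Filled points passed an edgeR adjusted p of 0.05: only Prdm8, at -2.51, is filled.

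Of 9 further genes of the family and its relatives, 6 were tested and none passed in edgeR, DESeq2 or limma-voom, and none had an unadjusted edgeR p under 0.05. Their median log2 fold change was -0.36. Prdm9, the methyltransferase that places meiotic recombination sites, stood at 8.84 and 1.48 CPM in the GFP-negative and 8.86 and 18.4 CPM in GFP-positive libraries (edgeR adjusted p = 0.501). Like Prdm1, it was lowest in GFP-negative replicate 6 and highest in GFP-positive replicate 3, the libraries with the lowest and highest rod sums, and the part of rod RNA was not tested. Its log2 fold change of 1.38 was 3.15 without GFP-negative replicate 2, 0.63 without GFP-negative replicate 6 and 0.76 without GFP-positive replicate 3. Zfpm2, a cofactor of GATA factors also known as FOG2, stood at 19.0 and 26.3 against 16.6 and 5.03 CPM (edgeR adjusted p = 0.491), with a log2 fold change of -1.07 that was -2.19 without GFP-positive replicate 2 and -0.45 without GFP-positive replicate 3, and its relative Zfpm1 at 21.0 and 13.7 against 8.57 and 12.9 CPM (0.582). Zfp408 was at 30.0 and 17.7 against 27.5 and 18.7 CPM, and Prdm11 at 6.36 and 1.28 against 1.95 and 2.92 CPM.

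The last 3 of these genes had few or no counts. Mecom (PRDM3), a factor of blood stem cells, had 94 counts in GFP-positive replicate 3 and 0 in the other libraries. Prdm12, a factor of pain-sensing neurons, had 21 counts in GFP-positive replicate 2 and 0 elsewhere. Prdm14, a germ line factor, had 0 counts in all 4. None of the 3 was tested.

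A list of 3 genes held a partner of Prdm8, that partner's relative and a target of their complex. Bhlhe22, its partner in the repressor complex, stood at 185 and 271 CPM in the GFP-negative and 104 and 77.9 CPM in GFP-positive libraries, without overlap. The log2 fold change was -1.32 ± 0.34 and did not pass (edgeR adjusted p = 0.152), although it did with DESeq2 (0.0102). Cdh11, a cadherin gene that the complex is known to repress, stood at 60.7 and 80.1 against 29.8 and 47.0 CPM (log2 fold change -0.87, edgeR adjusted p = 0.345). Bhlhe23, a bipolar relative of Bhlhe22, stood at 28.0 and 9.16 against 29.9 and 77.1 CPM (1.52, edgeR adjusted p = 0.334), with a log2 fold change of 2.49 without GFP-negative replicate 2 and 0.68 without GFP-positive replicate 3. Prdm8, Bhlhe22 and Cdh11 were each lower in every GFP-positive library than in every GFP-negative library, and Bhlhe23 was higher. The fractions did not overlap for 43.8% of all tested genes.

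Around Prdm13, 20 regulators of amacrine cells were read, of which 18 were tested. Of these, 1 passed in edgeR, lower in GFP-positive cells, beside 0.870% of all tested genes. An unadjusted edgeR p under 0.05 was found for 8, beside 12.6% of all tested genes. The median log2 fold change was 0.11, with 9 above 0 and 9 below. Tfap2c, an AP-2 transcription factor, was the member that passed. It fell from 248 and 345 CPM to 23.3 and 12.9 CPM, a log2 fold change of -4.04 ± 0.42 (edgeR adjusted p = 0.0107). Tfap2c missed the threshold when GFP-negative replicate 6 was left out (edgeR adjusted p = 0.0711) or GFP-positive replicate 3 was (0.0778). Its relatives Tfap2a (41.9 and 51.6 against 14.1 and 16.8 CPM) and Tfap2b (138 and 161 against 63.4 and 25.0 CPM) did not pass (edgeR adjusted p = 0.0813 and 0.135). Both passed with DESeq2 (adjusted p = 0.00155 and 0.00713), which called 4.39% of all tested genes.

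Ptf1a, which acts upstream of Prdm13 in amacrine precursors, had 1 count in GFP-negative replicate 6 and 0 in the other libraries, while Prdm13 had 5661 or more counts in every library. Pax6 stood at 1469 and 2245 CPM in the GFP-negative and 1972 and 1286 CPM in GFP-positive libraries, with overlap (log2 fold change -0.19, edgeR adjusted p = 0.908). Ebf3, a factor of amacrine types that need Prdm13, was low, at 2.46 and 2.07 against 3.50 and 9.53 CPM (log2 fold change 1.52, edgeR adjusted p = 0.425), and its log2 fold change was 0.62 without GFP-positive replicate 3. The amacrine marker sum, which holds Pax6 and the 3 AP-2 genes, was lower in both GFP-positive libraries, where Prdm13 was higher. Its markers did not all move alike, but Slc6a9 alone had a log2 fold change above 0. Gad1 stood at 985 and 1766 CPM in the GFP-negative and 155 and 69.2 CPM in GFP-positive libraries. Slc6a9 went the other way, at 54.3 and 31.4 against 85.8 and 74.7 CPM, and did not pass (log2 fold change 0.90, edgeR adjusted p = 0.334).

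PRDM proteins act through shared corepressors and chromatin enzymes, and a list of 22 of these genes was read. All were tested and none passed in edgeR; 2 had an unadjusted p under 0.05, beside 12.6% of all tested genes, and 1 passed with DESeq2, beside 4.39%. Their median log2 fold change was 0.02. Tle4, a Groucho corepressor and the gene that passed with DESeq2, stood at 82.4 and 77.8 CPM in the GFP-negative and 34.6 and 17.2 CPM in GFP-positive libraries (log2 fold change -1.63, edgeR adjusted p = 0.112). Ezh2, the methyltransferase of Polycomb complex PRC2, stood at 26.7 and 18.5 against 39.5 and 66.3 CPM (1.23, edgeR adjusted p = 0.243). Ctbp2, a corepressor that binds Prdm16 and Mecom and also shares its gene with the synaptic ribbon protein Ribeye, stood at 272 and 213 against 366 and 384 CPM (edgeR adjusted p = 0.489). Suv39h2, a histone H3 lysine 9 methyltransferase, stood at 36.8 and 12.6 against 34.3 and 50.1 CPM (edgeR adjusted p = 0.579), again lowest in GFP-negative replicate 6, and its log2 fold change went from 0.77 to 1.68 without GFP-negative replicate 2.

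Genes with the most similar profiles were found as those with the smallest distance between log2 CPM values, each centred on its own mean, over the 4 libraries, among tested protein-coding genes with a count in every library and within 2-fold in mean CPM. For Prdm13, out of 1406 such genes, they were Klhl5 (distance 0.233), a kelch-like protein gene, Six6 (0.287), a homeobox factor of the eye field, and Cdh4 (0.424), which encodes R-cadherin. Six6 stood at 144 and 204 CPM in the GFP-negative and 515 and 385 CPM in GFP-positive libraries, and Cdh4 at 131 and 146 against 639 and 361 CPM. Neither passed, nor did Klhl5 (edgeR adjusted p = 0.155, 0.0755 and 0.187 for Six6, Cdh4 and Klhl5). All 3 were chosen for likeness to Prdm13 in these same libraries, so their rise is fixed by that choice and is a description. With DESeq2, which called 4.39% of all tested genes, all 3 passed (adjusted p = 0.00753, 0.000138 and 0.0299). Cdh4 also passed in edgeR with upper-quartile scaling, library size only and the strict filter (adjusted p = 0.0374, 0.0274 and 0.032). Klhl5 went from a log2 fold change of 1.38 to 0.78 without GFP-positive replicate 2.

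For Prdm8, out of 2094 genes, they were Lmo4 (distance 0.317), a LIM-only transcription cofactor, Rd3l (0.350), a relative of the retinal degeneration gene Rd3, and Tubb2b (0.399), a neuronal beta-tubulin. They were chosen for likeness to Prdm8 in these same libraries, so their fall is fixed by that choice and is a description. Lmo4 went from 283 and 464 to 65.7 and 56.4 CPM, Rd3l from 483 and 609 to 106 and 74.3 CPM, and Tubb2b from 248 and 430 to 62.6 and 68.1 CPM (edgeR adjusted p = 0.0195, 0.0194 and 0.0278). For each of these genes the call was lost without GFP-negative replicate 6 (edgeR adjusted p = 0.126 to 0.174), without GFP-positive replicate 2 (0.0956 to 0.139) and without GFP-positive replicate 3 (0.240 to 0.270), as it was for Prdm8. All 3 also missed the threshold in the legacy quasi-likelihood fit (edgeR adjusted p = 0.0622 to 0.0834), where Prdm8 was just under it (0.0470).

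For Prdm1, out of 4913 genes, they were Llgl2 (distance 0.0601), a cell polarity gene, Ppef2 (0.192), a phosphatase of photoreceptors, and Cecr2 (0.201), a bromodomain gene. Llgl2 stood at 139.8 and 18.7 CPM in the GFP-negative and 129.9 and 160.1 CPM in GFP-positive libraries, and Ppef2 at 133 and 17.4 against 139 and 183 CPM. All 3 shared the low value in GFP-negative replicate 6, and none passed (edgeR adjusted p = 0.583 to 0.667). As with Prdm1, all 3 passed without GFP-negative replicate 2, at log2 fold changes of 2.76 to 3.15 (edgeR adjusted p = 0.0240 to 0.0320), and stood at 0.06 to 0.28 without GFP-negative replicate 6. These genes were chosen for likeness to Prdm1 in these same libraries, so their shared shifts are fixed by that choice. With 4 libraries, these distances are a description only.

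**Figure D5:**
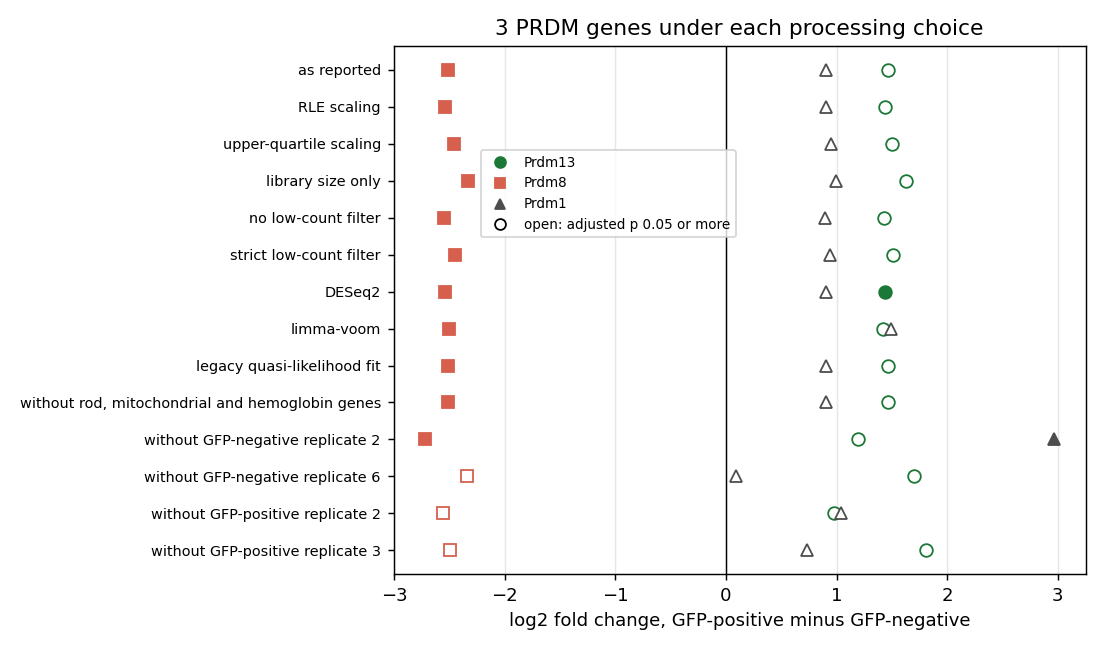
Log2 fold change of Prdm13, Prdm8 and Prdm1 between the fractions as reported and under 13 other processing choices, with filled symbols where the adjusted p of that fit was under 0.05. Prdm8 stays between -2.72 and -2.33 and Prdm13 between 0.98 and 1.81, whereas Prdm1 is 0.09 without GFP-negative replicate 6 and 2.97 without GFP-negative replicate 2.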

How the data were processed

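Whole-number read counts per Ensembl gene were used as the authors deposited them, in 1 column per library. The submitters' processing notes name Trimmomatic, STAR 2.7.3a, MultiQC, limma and GRCm38 without giving roles. Not given in the sources used here: the counting tool, annotation and strand setting; a second deposited table was not used here. Fraction and replicate number came from the labels.

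edgeR 4.0.16 in R 4.3.3 was run with TMM scaling, filterByExpr (minimum count 10, minimum total 15) and glmQLFit (robust, not legacy) with glmQLFTest. It tested 17940 of the 27925 genes detected, on 2 residual degrees of freedom, and p was adjusted by Benjamini-Hochberg with 0.05 as threshold. The error of a log2 fold change is its size divided by the root of F. Lengths are unions of GENCODE M21 exons in GRCm38, which held 55230 of 55471 gene IDs. Promoters are from RefSeq (GRCm38.p6), with entries for 7 of 9 members. Pairs of libraries differed beyond sampling noise (chi-square per degree of freedom 144 at the least). That least value came from both replicates 2, a pair that spans the fractions. It was below the value within the GFP-negative fraction (186) and within the GFP-positive fraction (162.7). The remaining pairs, all across the fractions, were at 234.7 to 549.5. Why both replicates 2 were the closest pair was not tested.

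The members and lists were chosen with earlier results of these data known. Named are all members, further family genes and Prdm8 partners; up to 4 genes of smallest p from each other list; Ptf1a, Pax6, Ebf3, Bhlhe22 and Gbx2; and the 3 nearest profiles to Prdm13, Prdm8 and Prdm1. A730035I17Rik and 4930517E14Rik were added for their overlaps. Some genes that this rule names are not reported here. Alternatives were other scalings and filters, DESeq2 1.42.0, limma-voom 3.58.1, a legacy quasi-likelihood fit and a Müller marker sum without Dkk3, both chosen after seeing the data, a fit without rod, mitochondrial and hemoglobin genes, and leaving out each library.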

Additional observations from a re-analysis of the deposited data

How the results depend on the processing

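Over all genes, the number called was 198. It became 106 with no low-count filter, 787 with DESeq2 (4.39% of all tested genes), 92 with limma-voom and 48 with the legacy quasi-likelihood fit. It ranged from 1 (without GFP-negative replicate 6) to 336 (without GFP-negative replicate 2) when a library was left out. The number of PRDM members called was 1 and became 2 with DESeq2 (Prdm13 added), and 0 to 2 with a library left out, 2 without GFP-negative replicate 2 (Prdm1 added) and 0 without any of the other libraries. The amacrine regulators called went from 1 to 4 with DESeq2 and to 0 to 2 with a library left out, and the corepressors called from 0 to 1 with DESeq2. Prdm8 passed under every scaling, filter and tool run, but only just in the legacy quasi-likelihood fit (edgeR adjusted p = 0.0470). Signs reversed, never past the threshold, when a library was left out for Prdm4 (-0.73 to 0.14, above 0 without GFP-positive replicate 3), Prdm15 (-0.20 to 0.99, below 0 without GFP-negative replicate 2), Pax6 (-0.55 to 0.15, above 0 without GFP-negative replicate 6 and, at 0.08, without GFP-positive replicate 3), Prdm11 (-1.38 to 0.87, above 0 without GFP-negative replicate 2) and Zfp408 (-0.37 to 0.33, above 0 without GFP-negative replicate 2 and, at 0.20, without GFP-positive replicate 3). Zfp408 was also at 0.0888 with library size only. The cause was not tested. Library size as the only scaling moved the median of all genes by 0.17 on the log2 scale, to 0.21. Using the longest transcript as length, Prdm4 and Prdm1 exchanged ranks 3 and 4 in GFP-negative cells. No paired analysis was possible because the fractions share only replicate number 2. The number of libraries, 2 per fraction, limits the precision of every interval.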
